A study of Mus musculus with 15 samples.

Results

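The spleens of 3 mice taken 7 days after resection of 70% of the liver were compared with intact spleens 1 to 3, in the expression of 22206 array features. All 3 arrays labelled as day 7 were used, and of the 6 intact spleens those numbered 1 to 3, so that 6 of the 15 arrays of the series enter the comparison. Every feature that measures a transcript was kept, 22206 of 28846, and the 6640 array controls were left out. Of the 22206 features, 19572 carry 1 gene symbol, and they stand for 19505 genes. Transcripts of pancreatic acinar cells, which were abundant in intact spleens 1 and 2, are described on their own.

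The study followed the mouse spleen while the liver grew back, and used male C57bl/10 mice. The operated mice lost 70% of the liver volume by the Higgins and Anderson method under isoflurane and were killed after 7 days, and the intact mice had no operation. Sham-operated mice were part of the study but not of the array experiment, so that surgery and loss of liver cannot be told apart. RNA of whole spleen was hybridised to Clariom S mouse arrays, 1 array a spleen, named biological replicates in the labels.

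The spleen filters blood that leaves through the portal vein towards the liver. Its white pulp holds T cells around the arterioles and B cells in follicles. Its red pulp holds macrophages that take up old erythrocytes, and in the mouse it also makes erythrocytes, granulocytes and megakaryocytes throughout life. Granulocyte precursors pack proteases into primary granules first, then fill secondary and tertiary granules, and lose most of the granule transcripts once they mature into neutrophils.

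The values are log2 expression levels, so that a difference of 1 is a fold of 2. Medians of the 15 arrays ran from 4.74 to 4.89, and Pearson's r across features was 0.958 to 0.983 between pairs of the 6 arrays. Precision is limited by the 3 arrays of each group. The scale ends at 19.9, a level that 41 features reached on at least 1 of the 6 arrays, and a difference measured there is a lower bound. RNA came from whole spleen, so that fewer cells of a type and less RNA per cell cannot be told apart.

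No feature passed a Benjamini-Hochberg adjusted p under 0.05 in limma, 0 of 22206 or 0%, and the smallest adjusted p was 0.172. At an unadjusted p under 0.05 there were 2300 features, 10.4% of those tested. Single genes are therefore described by their values, and a log2 difference of at least 1 in size together with an unadjusted p under 0.05 serves below as a descriptive fold criterion. It was met by 771 features, 3.47% of all. Of these, 487 were higher on day 7 (2.19% of all features) and 284 were lower (1.28%). In 319 of the higher features (1.44%) and 228 of the lower features (1.03%) the 3 day 7 arrays also lay outside the range of intact spleens 1 to 3. Over all features the median log2 difference was 0.00, and 49.7% were higher on day 7.

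Differences are day 7 minus intact, with the groups as the labels give them. In its array results the study describes the opposite direction on day 7 for Ctsg and Stfa2. It does so too for the pathways of lymphocyte receptor signalling and of electron transport. Its discussion, however, describes raised Serpina3n, Stfa2 and Stfa2l1 as lasting up to 7 days. For Serpina1a it gives a lower level on day 7, the direction found here against intact spleens 1 to 3. Its flow cytometry found fewer cytotoxic T cells on day 7. The labels were followed here.

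Granulocyte genes stood at the top of the features that were higher on day 7. The 5 genes with the largest difference among those without overlap were Ms4a3, Ctsg, Prtn3, Elane and Mpo, all of which are transcribed in granulocyte precursors. Their promoters, 250 bases before to 50 bases after the start of the gene in RefSeq's mouse annotation (GRCm38.p6), are shown because these genes lead the comparison and were high on the same arrays. They lie on chr19:11640802-11641101 (Ms4a3, minus strand), chr14:56102525-56102824 (Ctsg, minus strand), chr10:79879417-79879716 (Prtn3, plus strand), chr10:79886062-79886361 (Elane, plus strand) and chr11:87793534-87793833 (Mpo, plus strand). Capitals mark GAGGAA, the core of many PU.1 sites. PU.1 is a transcription factor of the myeloid and B cell lineages.
Ms4a3: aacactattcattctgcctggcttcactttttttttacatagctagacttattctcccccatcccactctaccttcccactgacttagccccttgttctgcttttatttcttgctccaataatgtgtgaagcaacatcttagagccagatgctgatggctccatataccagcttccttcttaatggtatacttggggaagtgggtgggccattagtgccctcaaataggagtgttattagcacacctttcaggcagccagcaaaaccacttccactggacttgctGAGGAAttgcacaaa
Ctsg: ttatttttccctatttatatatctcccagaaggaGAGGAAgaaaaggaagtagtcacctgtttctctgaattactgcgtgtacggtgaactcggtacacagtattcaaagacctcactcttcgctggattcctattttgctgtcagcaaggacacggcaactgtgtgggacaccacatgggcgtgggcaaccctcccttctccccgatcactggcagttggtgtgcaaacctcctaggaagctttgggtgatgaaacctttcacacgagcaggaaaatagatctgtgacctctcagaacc
Prtn3: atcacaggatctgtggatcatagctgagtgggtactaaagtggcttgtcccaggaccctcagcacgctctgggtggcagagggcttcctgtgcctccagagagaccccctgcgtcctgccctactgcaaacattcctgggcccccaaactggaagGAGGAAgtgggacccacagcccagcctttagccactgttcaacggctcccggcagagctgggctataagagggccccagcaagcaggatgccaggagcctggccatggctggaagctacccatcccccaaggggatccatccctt
Elane: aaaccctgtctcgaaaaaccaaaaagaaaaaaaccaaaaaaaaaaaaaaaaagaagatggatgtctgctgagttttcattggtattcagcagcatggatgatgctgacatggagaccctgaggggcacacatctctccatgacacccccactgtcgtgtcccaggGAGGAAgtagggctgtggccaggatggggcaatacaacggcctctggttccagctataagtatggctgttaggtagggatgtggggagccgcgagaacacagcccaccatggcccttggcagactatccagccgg
Mpo: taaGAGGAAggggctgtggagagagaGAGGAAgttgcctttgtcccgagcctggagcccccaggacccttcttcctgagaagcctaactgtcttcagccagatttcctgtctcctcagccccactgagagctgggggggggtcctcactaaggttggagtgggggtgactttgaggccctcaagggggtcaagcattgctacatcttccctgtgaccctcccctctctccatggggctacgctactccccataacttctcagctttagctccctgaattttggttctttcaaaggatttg
Searched on both strands, GAGGAA was found in 5 of these 5 promoters, once in 4 of them and 2 times in that of Mpo, always on the strand of the gene. The site of Ms4a3 lies after the start of the gene, and those of the others lie before it. GAGGAA was found in 28.3% of 32851 RefSeq promoters. Counted by gene, it was present in any promoter of 6 of 8 measured genes of the primary granule list. For secondary and tertiary granule genes the count was 9 of 13, and for mature neutrophil genes 11 of 15. The same held for 14 of 21 of the T cell list, whose genes were lower on day 7, and for 3 of 15 clock genes. TTNCNNAA, a form of the site for C/EBP factors of the granulocyte lineage, was found in 1 of the 5 promoters, that of Ms4a3, against 40.7% of all promoters. Counted by gene again, TTNCNNAA was present in any promoter of 4 of 8 primary granule genes and 10 of 13 secondary and tertiary granule genes. For mature neutrophil genes it was 11 of 15, and for T cell genes 12 of 21. A gene can have several promoters, so these gene counts are not on the same base as the shares of all promoters. Prtn3 and Elane are neighbours on chromosome 10 and were high on the same arrays.

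Ms4a3, a membrane protein gene of granulocyte and monocyte progenitors, had log2 levels of 11.54, 9.40 and 8.91 in intact spleens 1 to 3 and 12.15, 15.72 and 12.27 in the day 7 spleens. All 3 day 7 arrays lay above the intact arrays, as the choice of the leading genes required. Day 7 spleen 2 stood far above the others. The difference was 3.43 ± 1.01 (SE, n = 3 against 3, a fold of 10.8), with an adjusted p of 0.284 from limma.

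Ctsg, which encodes the granule protease cathepsin G, had levels of 13.06, 10.25 and 10.21 in intact spleens and 13.09, 16.91 and 13.44 on day 7. The lowest day 7 array was only just above intact spleen 1. Elane, the gene of neutrophil elastase, measured 14.40, 12.79 and 12.77 in intact spleens and 15.85, 17.88 and 14.99 on day 7, a difference of 2.92 ± 0.75 (SE, fold 7.57, adjusted p = 0.242). Prtn3, the gene of proteinase 3, was higher by 3.13 ± 0.82 (fold 8.74, adjusted p = 0.242) and Mpo, the gene of myeloperoxidase, by 2.88 ± 1.00 (fold 7.34, adjusted p = 0.334). In both, day 7 spleen 2 was highest, with 15.78 for Prtn3 and 19.27 for Mpo.

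Prss57, another serine protease gene of granulocytes, had the smallest p of the primary granule list. Its levels were 4.91, 4.34 and 4.47 in intact spleens, at the dim end of the arrays, and 5.77, 8.04 and 6.45 on day 7 (difference 2.18 ± 0.44, adjusted p = 0.174). Fcnb, which encodes ficolin B, was higher by 1.61 ± 0.55. Of the 10 measured genes of the list, 7 were past the fold criterion, all higher, against 2.19% of all features. The same 7 had every day 7 array above the intact arrays, against 7.93% of all features. Among the 487 higher features past the criterion, 319 were without overlap. The median of the list was 2.53. The regulator Gfi1 and the growth factor gene Clec11a did not share the pattern, with differences of -0.11 and -0.13.

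Genes of secondary and tertiary granules came next. All 15 measured genes had a positive difference, with a median of 1.99, and 5 were past the fold criterion, against 2.19% of all features. Ltf, the gene of lactoferrin, had levels of 13.33, 10.66 and 11.44 in intact spleens and 14.00, 14.81 and 13.60 on day 7. Camp, the gene of the antimicrobial peptide cathelicidin, measured 14.02, 10.61 and 11.01 in intact spleens and 13.78, 15.11 and 13.48 on day 7, so that intact spleen 1 lay within the range of day 7. Hp, which encodes haptoglobin, overlapped in the same way, with 14.13 in intact spleen 1 and 14.06 in day 7 spleen 3, and its difference was 3.35 ± 1.41. Cybb, a subunit of the oxidase that makes superoxide, was higher by 1.39 and Adgrg3, an adhesion receptor of granulocytes, by 2.24. Lcn2, the gene of lipocalin 2, was at the upper end of the scale in day 7 spleens 1 and 2, and its difference of 1.05 is a lower bound.

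Genes of mature neutrophils were all higher as well, 16 of 16 measured, with a median of 1.87. Past the fold criterion were 6 of them, against 2.19% of all features. Csf3r, the receptor of the granulocyte growth factor G-CSF, differed most evenly. It measured 7.62, 6.36 and 6.71 in intact spleens and 8.72, 9.32 and 8.96 on day 7, and the difference was 2.10 ± 0.50 (SE, fold 4.30, adjusted p = 0.226). Trem3, an activating receptor of myeloid cells, was higher by 2.04 ± 0.55, and Cxcr2, the chemokine receptor that guides neutrophils, by 2.40 ± 0.83, with no overlap in either. Trem1, of the same family as Trem3, was dim in intact spleens and differed by 1.55. The alarmin gene S100a8 was near the upper end on all 6 arrays, from 18.49 to 19.93.

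**Figure D1:**
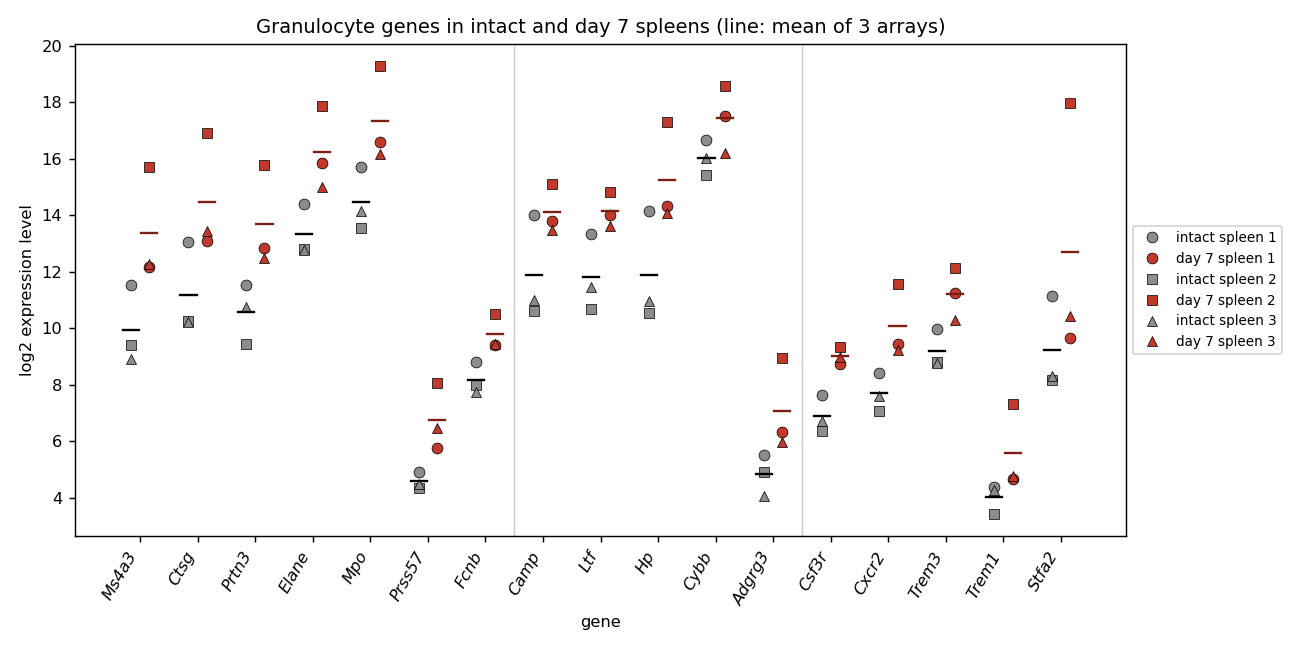
Log2 expression level of 17 granulocyte genes in intact spleens 1 to 3 (grey) and the 3 day 7 spleens (red), with a symbol for each spleen number and a line at each mean. From left to right stand genes of primary granules, of secondary and tertiary granules, and of mature neutrophils. The square of day 7 spleen 2 is the highest value of every gene, and intact spleen 1 is the highest intact value of each.

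The size of these differences depended on day 7 spleen 2. The mean of the primary granule genes, relative to the mean of intact spleens 1 to 3, was 1.38, 3.27 and 1.33 in day 7 spleens 1 to 3 and 0.84, -0.47 and -0.37 in the intact spleens. For mature neutrophil genes it was 1.06, 3.75 and 0.84 on day 7 and 0.93, -0.49 and -0.44 in intact spleens. Thus intact spleen 1 lay below all day 7 spleens for primary granules but between them for mature neutrophils. Without day 7 spleen 2 the median differences of the 3 lists were 1.73, 1.31 and 0.86, and without intact spleen 1 they were 2.90, 2.66 and 2.24.

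The same spleen carried the values of the stefins and of Serpina3n, protease inhibitor genes that the study examined. Stfa2 measured 11.15, 8.15 and 8.32 in intact spleens and 9.65, 17.99 and 10.44 on day 7, and Stfa2l1 gave 18.01 in day 7 spleen 2 and at most 10.95 on the other 5 arrays. Members of this family are close copies whose probes may not tell them apart. Serpina3n, the gene of an inhibitor of granulocyte proteases, was at 7.04, 7.04 and 7.05 in intact spleens and 6.78, 9.62 and 6.45 on day 7. In these 3 genes the groups overlapped, with adjusted p of 0.607, 0.627 and 0.923. Serpina1a and Serpina1b, copies of the alpha-1-antitrypsin gene, had differences of -0.59 and -0.71. Against intact spleens 4 to 6 the same copies were higher on day 7 by 4.08 and 3.83. Both passed the test in limma, with adjusted p of 1.1e-04 and 2.4e-06. The intact sets were themselves apart, which enters these differences. Serpina1a measured 10.18, 10.02 and 10.90 in intact spleens 1 to 3 and 5.66, 6.28 and 5.12 in intact spleens 4 to 6. The day 3 spleens gave 6.24, 5.33 and 5.44. For Serpina1b the intact sets had 7.30, 6.85 and 7.22 against 2.24, 2.56 and 2.94.

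Among the higher genes past the fold criterion without overlap, the 10 with the largest difference held 5 genes outside the granulocyte lists. Lilr4b, a receptor gene of myeloid cells, measured 7.30, 5.78 and 6.04 in intact spleens and 8.88, 10.67 and 8.10 on day 7. Clec5a, a lectin receptor of monocytes and neutrophils, differed by 2.78, Wfdc17, which encodes a small secreted protein, by 2.67, and Gca, the gene of the calcium-binding protein grancalcin, by 2.41. Prom1, a marker of progenitors and epithelia, had levels of 6.12, 5.18 and 6.11 in intact spleens and 7.28, 9.98 and 7.64 on day 7. A lack of overlap was a condition for choosing these 5, and day 7 spleen 2 was highest in each.

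Genes of blood progenitors, basophils and monocytes did not differ as lists. The medians were 0.00 over 18 progenitor genes, 0.09 over 13 genes of basophils and mast cells and 0.10 over 20 monocyte genes. Single members did stand out. Myb, a transcription factor of immature blood cells, was higher by 1.21 ± 0.41, Cdk6, a kinase of the G1 phase, by 1.27 ± 0.46 and the progenitor mucin Muc13 by 1.03 ± 0.30. Without day 7 spleen 2, Myb and Cdk6 gave 0.67 and 0.66, and with the mean pancreatic acinar level of each array in the fit Cdk6 gave 0.46. Hdc, which makes histamine, was higher by 1.94, and the basophil protease gene Mcpt8 by 1.08 at a dim level. The mast cell protease genes went the other way. Mcpt4 measured 5.24, 5.22 and 6.01 in intact spleens and 3.08, 3.30 and 4.26 on day 7, and Cpa3 had a difference of -1.12.

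Among monocyte genes, Ms4a6d, a membrane protein gene of monocytes and macrophages, measured 7.48, 7.44 and 6.68 in intact spleens and 8.65, 8.74 and 9.24 on day 7, and was highest in day 7 spleen 3. The chemokine receptor gene Ccr2, by which monocytes leave the bone marrow, was higher by 1.20 ± 0.36 without overlap. The coagulation factor gene F13a1 differed by 1.16. The Ly6C genes Ly6c1 and Ly6c2 were at 14.60 and 13.71 in intact spleens and at 14.00 and 13.14 on day 7, with overlap. Nkg7, a granule protein gene of cytotoxic cells, was higher by 1.65 ± 0.38 without overlap, while 15 of the 19 measured genes of NK and cytotoxic cells had negative differences (median -0.20).

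Red pulp macrophage genes as a list were close to the intact level, with a median of -0.13 over 23 genes. Cd5l, a secreted protein gene of tissue macrophages, was the exception with the largest difference. It measured 7.73, 7.33 and 7.23 in intact spleens and 10.08, 8.82 and 10.14 on day 7 (2.25 ± 0.72, SE, adjusted p = 0.320). Clec4n, a receptor for fungal sugars, differed by 1.62 and Siglece, an inhibitory sialic acid receptor, by 1.53, both without overlap. Of the macrophage markers that the study stained or sorted, Csf1r (CD115) differed by 0.02, Adgre1, a general macrophage marker, by 0.29, Cd163 by -0.53, Mrc1 (CD206) by -1.01 and Cd86 by -0.35. All 5 overlapped between the groups.

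Lymphocyte genes lay at the opposite end. All 31 measured T cell genes were lower on day 7, with a median difference of -1.20, and 17 were past the fold criterion, against 1.28% of all features. In 21 of the 31 all day 7 arrays lay below the intact arrays, against 8.31% of all features. Grap2, an adaptor that couples the T cell receptor to calcium signalling, had the smallest p of the list. It measured 10.49, 10.26 and 11.08 in intact spleens and 8.74, 7.93 and 9.26 on day 7, a difference of -1.97 ± 0.37 (SE, fold 3.92 lower, adjusted p = 0.174).

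Themis, needed for T cell selection, had levels of 10.31, 9.23 and 10.13 in intact spleens and 7.57, 8.16 and 8.04 on day 7. Ets1, a transcription factor of lymphocytes, measured 12.50, 11.94 and 12.97 in intact spleens and 10.39, 10.91 and 10.43 on day 7. Both pairs of groups were apart by more than 1 unit at their closest. Il7r, the receptor for the survival cytokine of naive T cells, differed by -1.65 ± 0.42 and Ms4a4b, a membrane protein gene of T cells, by -2.17 ± 0.54. Lef1, a transcription factor of naive T cells, measured 6.88, 6.20 and 7.35 in intact spleens and 5.44, 5.44 and 5.41 on day 7, where the 3 spleens were almost equal.

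Genes of the T cell receptor complex and of T cell subsets were lower as well. Cd3e, a chain of the receptor complex, measured 8.69, 8.98 and 10.61 in intact spleens and 7.89, 7.94 and 7.84 on day 7 (-1.54 ± 0.53, adjusted p = 0.334). The coreceptor genes gave -1.08 for Cd8a, -0.92 for Cd8b1 and -0.70 for Cd4. Cd8a did not overlap between the groups, while Cd8b1 and Cd4 did, and none was past the fold criterion. Without intact spleen 3 the values were -0.94 for Cd3e, -0.59 for Cd8a, -0.51 for Cd8b1 and -0.25 for Cd4. Against intact spleens 4 to 6, Cd8a and Cd8b1 gave -3.80 and -3.06, past the test in limma with adjusted p of 0.0031 and 0.013. The gap between the intact sets is part of these differences. Cd8a measured 7.75, 7.64 and 9.18 in intact spleens 1 to 3 and 11.64, 9.60 and 11.49 in intact spleens 4 to 6. For Cd8b1 the sets had 7.28, 6.75 and 8.22 against 10.18, 8.73 and 9.78. In the list of T cell receptor signalling, 27 of 32 genes were lower and 11 past the criterion, against 1.28% of all features. Among these 11 was Dgka, a kinase that ends diacylglycerol signals, at -1.99 ± 0.57. Dusp10, a phosphatase that acts on stress kinases, measured 7.87, 7.48 and 8.78 in intact spleens and 6.17, 6.31 and 6.35 on day 7. Klf12, a repressor of transcription, had the smallest p of all lower genes, with 6.23, 5.89 and 6.20 in intact spleens and 4.53, 4.80 and 4.23 on day 7, near the dim end.

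B cell genes were lower by a similar amount. Of 26 measured, 24 were lower, the median was -0.96 and 10 were past the fold criterion, against 1.28% of all features. Blk, a kinase of the B cell receptor pathway, measured 8.99, 9.07 and 9.33 in intact spleens and 7.65, 7.76 and 8.05 on day 7, a difference of -1.31 ± 0.31 (SE, adjusted p = 0.222). Ebf1 and Pax5, transcription factors that set B cell identity, differed by -1.63 and -1.60, and Cd79a, a signalling chain of the B cell receptor, by -1.58. Btla, an inhibitory receptor of lymphocytes, and Cd72, an inhibitory coreceptor of B cells, gave -1.34 and -1.60. None of these overlapped.

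Genes of MHC class II presentation had the lowest median of the immune lists, -1.29 over 12 genes. Past the criterion were 8 of them, against 1.28% of all features. B cells, dendritic cells and macrophages use these genes to show antigen to helper T cells. H2-Aa measured 16.25, 16.55 and 17.09 in intact spleens and 15.53, 14.87 and 14.73 on day 7. H2-Ab1 had 11.70, 11.15 and 11.69 against 10.15, 10.33 and 10.22. Ciita, the master activator of this gene set, differed by -1.31 ± 0.42 and the chaperone gene H2-DMb1 by -1.73 ± 0.59. Of the 12 genes, 11 were lower. Genes of dendritic cells had a median of -0.18 over 20 genes.

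The Ccl21 chemokines, which stromal cells of the T cell zone make to draw in naive lymphocytes, were lower too. Ccl21a measured 12.43, 11.73 and 13.37 in intact spleens and 11.27, 10.82 and 9.69 on day 7, a difference of -1.91 ± 0.70. The near-identical copies Ccl21b and Ccl21c had equal values on each array, with a difference of -2.11, and their annotated relatives Gm10591 and Gm13304 gave -2.25 and -2.17. The arrays may not separate these copies, which therefore count as 1 signal. S1pr1, the receptor by which lymphocytes leave the tissue, measured 8.07, 7.62 and 8.16 in intact spleens and 6.28, 6.71 and 6.60 on day 7. Of 16 genes of naive lymphocyte trafficking, 15 were lower, with a median of -0.83. Ablim1, an actin-binding protein gene, differed by -2.22 ± 0.58. Ptprc, which encodes the common leukocyte antigen CD45, differed by -1.14 ± 0.68 without overlap but missed the fold criterion. Without intact spleen 3, Ptprc gave -0.68.

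**Figure D2:**
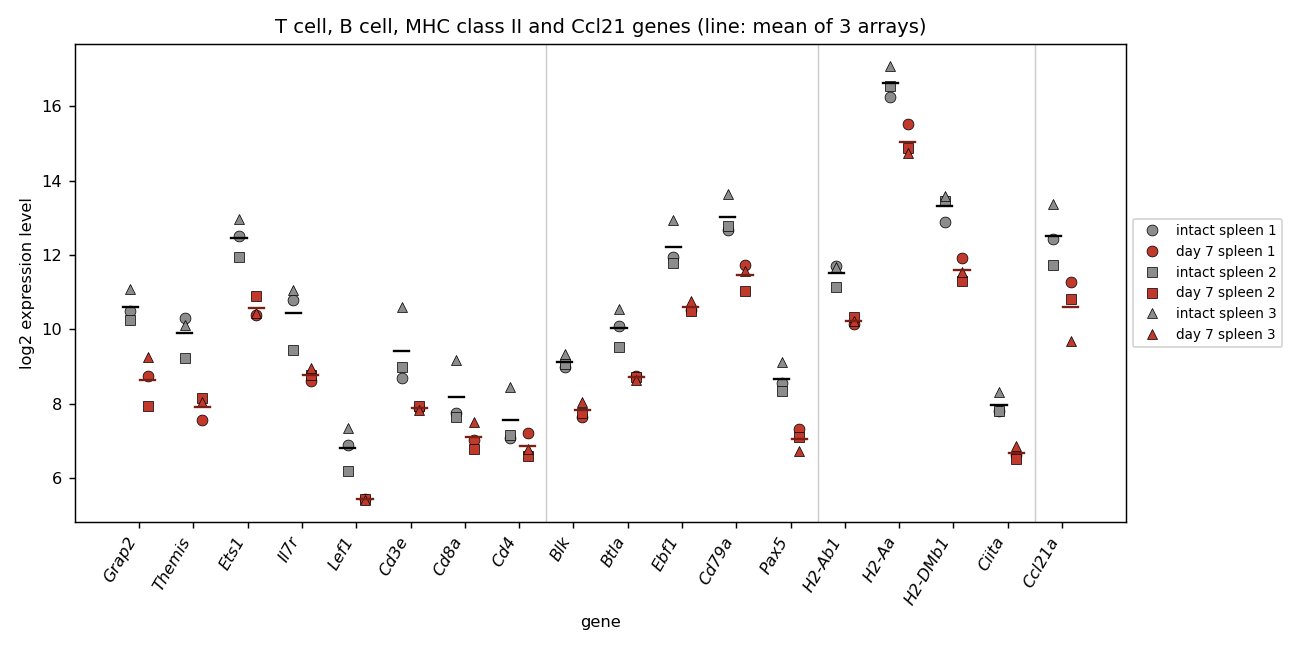
Log2 expression level of T cell, B cell and MHC class II genes and of Ccl21a, separated by vertical lines, in intact spleens 1 to 3 (grey) and the 3 day 7 spleens (red). Each symbol is a spleen and each line the mean of 3. Apart from Cd4, every gene shown has its 3 day 7 values below all intact values.

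Unlike the granulocyte lists, the lymphocyte lists were even across the day 7 spleens. Relative to intact spleens 1 to 3, the mean of the T cell genes was -1.14, -1.14 and -1.08 on day 7 and -0.08, -0.37 and 0.46 in the intact spleens. That of the B cell genes was -0.82, -0.96 and -0.92 against -0.31, -0.11 and 0.42. Intact spleen 3 was the highest in both, and without it the medians were -1.02 and -0.62. Without day 7 spleen 2 they were -1.07 and -0.99. Plasma cell genes had a median of 0.16 over 14 genes, of which 7 were higher and 7 lower. The 1 member past the fold criterion downward was Cd28 at -1.39, a costimulatory receptor gene that is also in the T cell list. Of all features, 1.28% were lower and 2.19% higher by the criterion. Fkbp11, a folding enzyme of secretory cells, was higher by 1.19 and Eaf2, an elongation factor partner that rises in plasma cells, by 1.15. Mzb1, a chaperone gene of antibody-secreting cells, gave 9.89, 8.93 and 11.49 on day 7 and 8.57, 9.04 and 9.13 in intact spleens, with overlap.

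**Figure D3:**
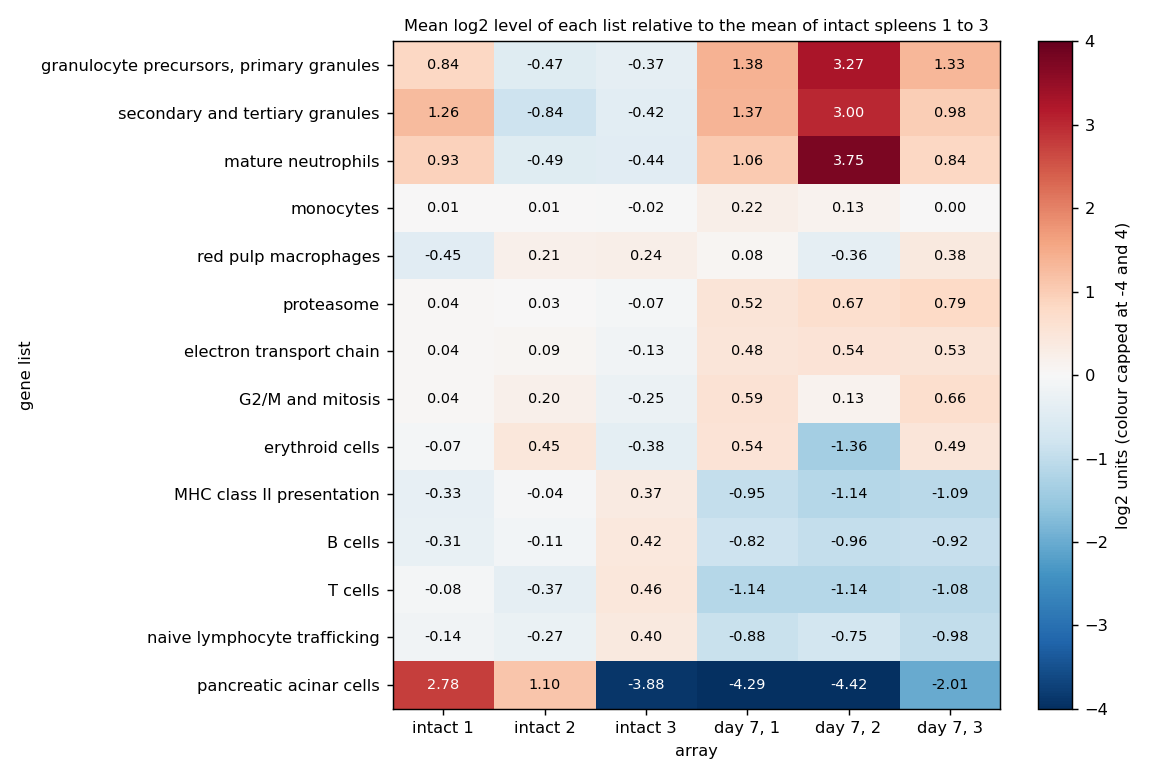
Mean log2 level of the genes of 14 lists in each of the 6 arrays, relative to the mean of intact spleens 1 to 3, with the value printed in each cell. Day 7 spleen 2 is the highest array in the granulocyte lists and the lowest in the erythroid list, whereas the T cell, B cell and proteasome lists are even over the day 7 spleens, and the acinar list is high in intact spleens 1 and 2.

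Erythroid genes showed the reverse of the granulocyte pattern within day 7. Their mean was 0.54 and 0.49 in day 7 spleens 1 and 3 but -1.36 in day 7 spleen 2, and -0.07, 0.45 and -0.38 in the intact spleens. Slc25a37, which carries iron into mitochondria for haem synthesis, measured 15.23, 12.56 and 15.22 on day 7 and 14.93 to 15.37 in intact spleens. Of the 31 genes 0 were past the fold criterion. The list median was -0.13, and 0.54 without day 7 spleen 2. Genes of megakaryocytes and platelets were also lowest in that spleen, with means of 0.12, -1.22 and -0.50 on day 7. Clec1b, a platelet receptor, was the single gene of that list past the criterion, at -1.23, where 1.28% of all features were lower by it. All 16 endothelial genes had negative differences, with a median of -0.41, and Cldn5, a tight junction gene, gave -1.08.

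Proteasome genes were higher on day 7 by less than the granulocyte genes but in every day 7 spleen, with a list mean of 0.52, 0.67 and 0.79 relative to the intact spleens. Of 35 measured, 31 were higher, 23 had all day 7 arrays above the intact arrays, and 7 were past the fold criterion. Among all features, 7.93% had every day 7 array above the intact arrays and 2.19% were higher by the criterion. The median of the list was 0.69. Psmd2, a scaffold subunit of the regulatory particle, had the smallest p of all 22206 features. It measured 10.99, 10.98 and 10.44 in intact spleens and 12.40, 12.35 and 12.34 on day 7, a difference of 1.56 ± 0.25 (SE, fold 2.95, adjusted p = 0.172 from limma). Psmd13, another subunit of that particle, differed by 1.33 ± 0.28 and Psma7, of the core ring, by 1.28 ± 0.27, both without overlap.

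The 4 genes of the list with negative differences were Psmb8, Psmb10, Psme1 and Psme2, at -0.31, -0.15, -0.11 and -0.81. All 4 encode the interferon-inducible immunoproteasome or its activator, as does Psmb9, at 0.21. They were singled out after their values were seen, all 5 overlapped or missed the fold criterion, and the sign of all but Psme2 turned under some of the other settings. The 36 measured interferon-stimulated genes had a median of -0.15, with 0 past the criterion.

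Genes of the respiratory chain were higher in 45 of 50, with a median of 0.50. The fold criterion was met by 9, against 2.19% of all features. Cycs, the gene of cytochrome c, measured 13.51, 13.65 and 13.53 in intact spleens and 14.43, 14.79 and 15.12 on day 7 (1.22 ± 0.28, SE, adjusted p = 0.202). Ndufa5, a subunit of complex I, differed by 1.12, Atp5a1, of the ATP synthase, by 1.01 and Cox6b1, of cytochrome oxidase, by 1.00. In these 4 genes every intact spleen lay below every day 7 spleen.

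Enzymes that make serine and folate one-carbon units had a median of 0.48 over 16 genes. The criterion was met by 4, against 2.19% of all features. Mthfd2, a mitochondrial folate enzyme of dividing cells, measured 8.60, 10.01 and 8.96 in intact spleens and 11.83, 10.29 and 12.51 on day 7, a difference of 2.36 ± 0.53 (SE, fold 5.12, adjusted p = 0.195). Here day 7 spleen 2 was the lowest of the 3, unlike in the granulocyte genes. Shmt2, which passes the carbon of serine to folate, was higher by 1.23 ± 0.30, and Psat1 and Phgdh, enzymes of serine synthesis, by 1.17 and 1.34. Among genes of the nucleolus, 22 of 28 were higher (median 0.52), with Nhp2 at 1.10 and Mybbp1a at 1.12. Of 41 cytoplasmic ribosomal proteins, 34 were higher, with a median of 0.29.

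Kdelr2, Nans, Tmem97 and Vmn1r74 were, with Psmd2, the 5 higher genes with the smallest p. Kdelr2, which returns escaped proteins to the endoplasmic reticulum, measured 9.51, 9.89 and 10.05 in intact spleens and 11.34, 11.54 and 11.22 on day 7 (1.55 ± 0.27, adjusted p = 0.172). Nans, which makes sialic acid, differed by 1.41 ± 0.24 and Tmem97, a regulator of cholesterol transport, by 1.20 ± 0.22. Of 21 heat shock and chaperone genes, 13 were higher and 8 lower, with a median of 0.26, and the lowest difference was -0.67. The median was -0.04 without intact spleens 1 and 2. The 3 members past the fold criterion were the endoplasmic reticulum chaperones Calr and Pdia6, higher by 1.54 and 1.77, and the mitochondrial chaperone Hspd1, by 1.26. Of all features, 2.19% were higher by the criterion. Vmn1r74, a pheromone receptor gene, differed by 1.45 at a dim level, from 2.51 to 4.70. Dennd1a, a regulator of endocytosis, measured 9.26, 8.80 and 8.65 in intact spleens and 6.83, 6.77 and 7.73 on day 7.

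**Figure D4:**
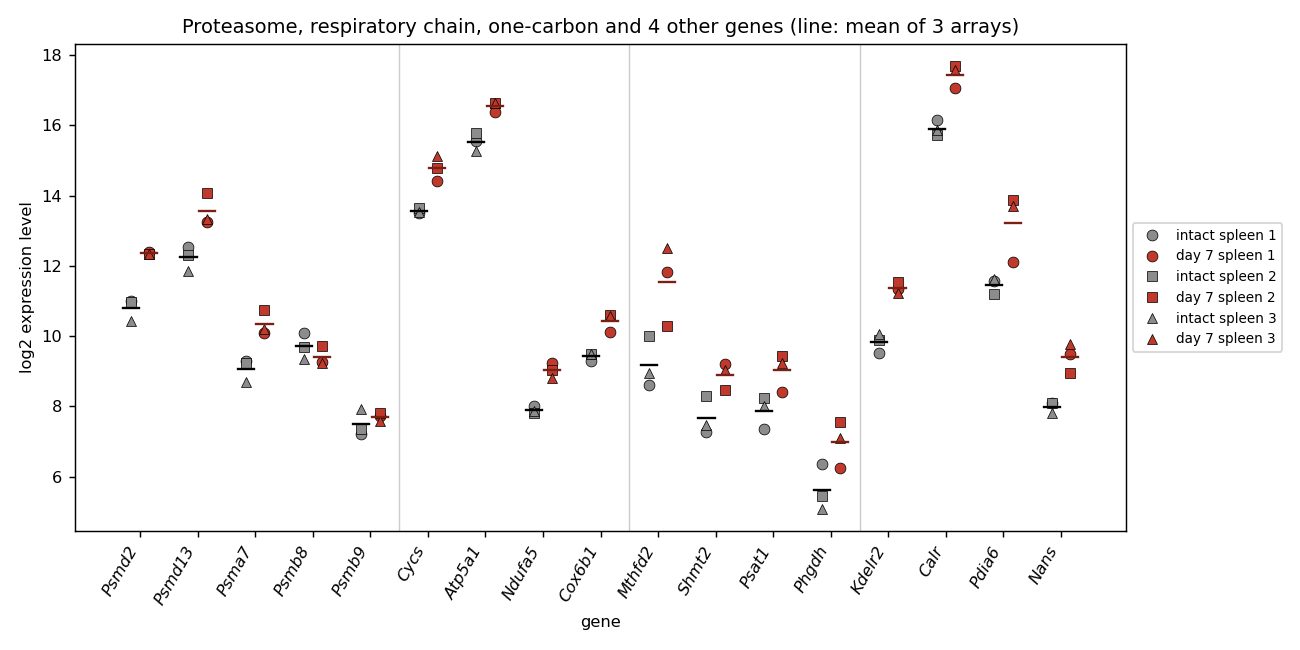
Log2 expression level of genes of the proteasome, the respiratory chain, serine and folate metabolism, and of Kdelr2, Calr, Pdia6 and Nans, separated by vertical lines, in intact spleens 1 to 3 (grey) and day 7 spleens (red), with a line at each mean of 3. Psmd2 measured 12.34 to 12.40 on day 7 and at most 10.99 in intact spleens, whereas Psmb8 and Psmb9 overlap.

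Cell cycle genes were mostly higher, and few of them were past the fold criterion. Of 49 genes of G1/S and DNA replication, 45 were higher (median 0.43, 2 past the criterion). Of 36 genes of G2/M and mitosis, 33 were higher (median 0.45, 1 past it). Over all features, 49.7% were higher and 2.19% were higher by the criterion. Cdc20, an activator of the anaphase-promoting complex, was at most 7.69 in intact spleens and at least 8.61 on day 7, a difference of 1.34 ± 0.56. Cdk4, a kinase of the G1 phase, differed by 1.08 ± 0.33 and Pold1, of DNA polymerase delta, by 0.96 ± 0.22, both without overlap. Of the proliferation markers of the study, Ccna2 (cyclin A2) differed by 0.52 ± 0.80 and Ccne1 (cyclin E1) by 0.32 ± 0.91, with overlap. Of 10 genes that the study names for day 7 or measured by RT-PCR, 8 had a feature with 1 gene symbol. The cyclin genes Ccnd1 and Ccnb1 were not among the 8. Mki67, the gene of Ki-67, measured 18.92 to 19.62 on the 6 arrays, near the upper end of the scale, where little room is left for a difference. Without intact spleen 3 both list medians were 0.28, and without day 7 spleen 2 they were 0.71 and 0.62.

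Dbp, a transcription factor of the circadian clock's output, had the largest negative difference among the lower genes past the fold criterion without overlap. It measured 10.28, 10.38 and 11.89 in intact spleens and 7.42, 7.06 and 7.32 on day 7, a difference of -3.58 ± 0.76 (SE, adjusted p = 0.174). The clock repressors Nr1d2 and Nr1d1 differed by -1.32 ± 0.40 and -0.71 ± 0.29, and Per3, a period gene, by -0.61, all without overlap. Nfil3, which binds the same DNA sites as Dbp and opposes it, gave 4.94, 6.05 and 5.09 on day 7 and 4.40 to 4.57 in intact spleens. Of 17 clock genes, 14 were lower, with a median of -0.30. Against intact spleens 4 to 6 the differences were smaller, with -1.20 for Dbp (adjusted p = 0.420 from limma), -0.56 for Nr1d2 and 0.16 for Per3, and against all 6 intact spleens Dbp gave -2.39. Resections were scheduled to 1 hour of the morning, from which the days were counted. The hour at which the intact spleens were taken is not given in the sources used here, and its part in these values was not tested.

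**Figure D5:**
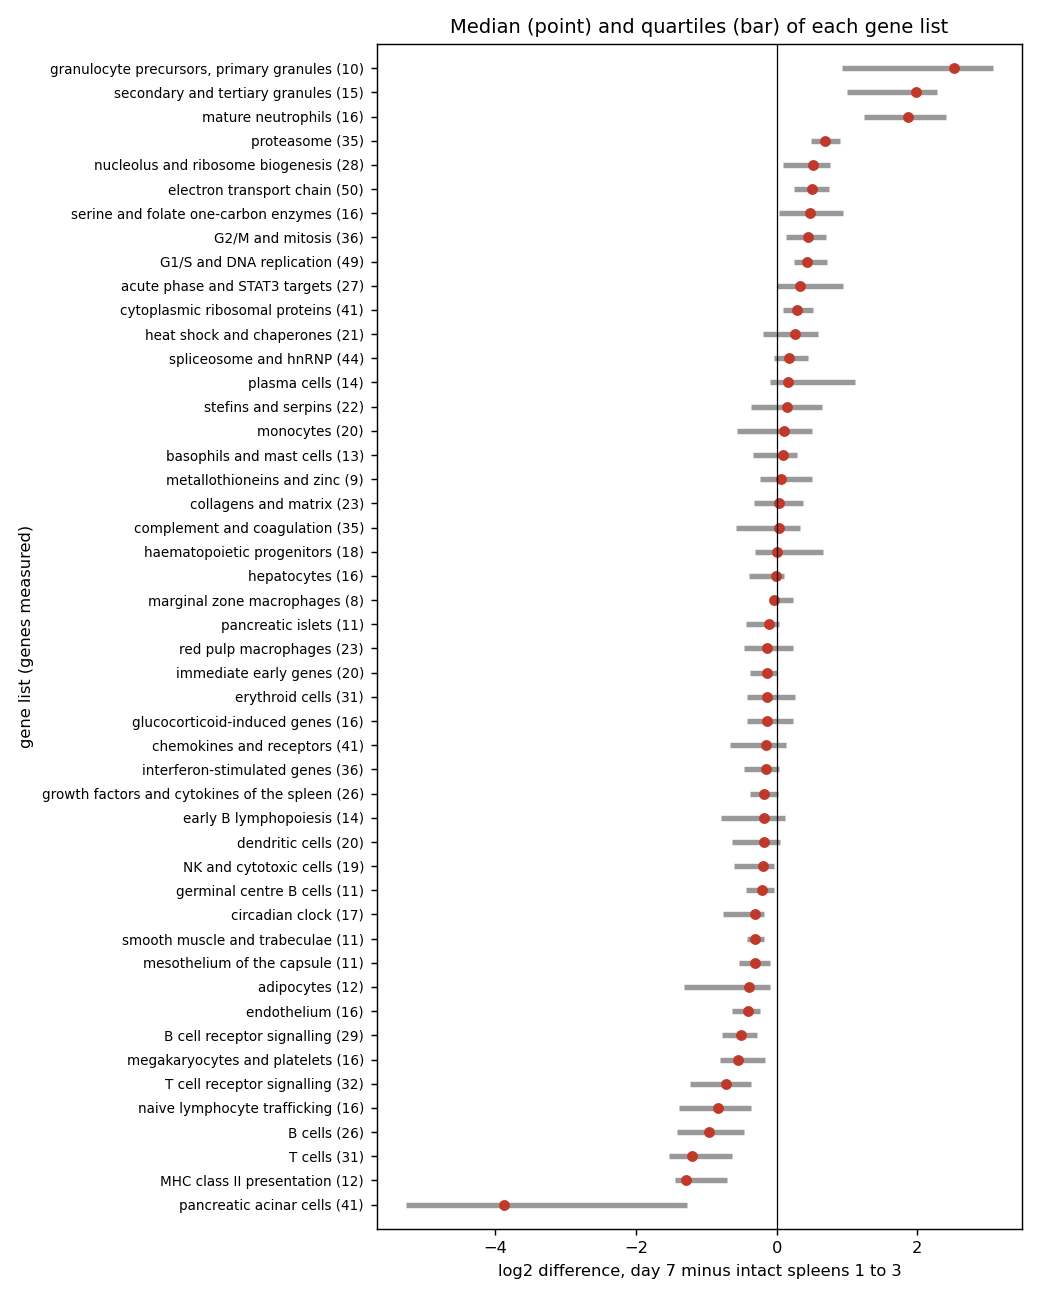
Median (point) and quartiles (bar) of the log2 difference, day 7 minus intact spleens 1 to 3, for 48 gene lists (those of genes the study examined are left out), with the number of measured genes in brackets. Granulocyte lists lie furthest right with medians of 1.87 to 2.53, lymphocyte and MHC class II lists lie left of 0, and the acinar list is furthest left at -3.87. The median over all features is 0.00.

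Pancreatic acinar transcripts gave the largest negative differences of all, and they followed single arrays. The pancreas lies next to the spleen, and its acinar cells make digestive enzymes that spleen cells do not. The mean log2 level of 41 measured acinar genes was 10.98, 9.29 and 4.32 in intact spleens 1 to 3 and 3.91, 3.78 and 6.18 in the day 7 spleens. Amy2a5, an amylase gene, measured 19.93, 19.83 and 11.32 in intact spleens and 6.33, 5.98 and 16.65 on day 7. Cpa1, the gene of carboxypeptidase A1, gave 19.57, 16.79 and 6.51 against 4.70, 4.85 and 10.09. Cpb1, another carboxypeptidase gene, and Ctrb1, a chymotrypsinogen gene, had differences of -7.82 and -6.98, and the remaining genes with the highest levels, Ctrl and Amy2b, -6.38 and -6.58. In each of these 6 genes intact spleens 1 and 2 were highest and day 7 spleen 3 came next, so that the groups overlapped.

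Of the 41 measured acinar genes, 39 were lower and 31 were lower by the fold criterion, against 1.28% of all features. A further search found 39 features that were at least 1 unit higher in both intact spleens 1 and 2 than on any other array of the series, of which 28 were acinar list genes. Together with the list these made 52 features, which supplied 39 of the 284 lower features, or 13.7%, and 0 of the 228 without overlap. A fit without them gave 246 lower and 488 higher features. When the mean acinar level of each array entered the fit, the medians were 2.41 for primary granule genes, -1.31 for T cell genes, -1.21 for B cell genes and 0.72 for the proteasome.

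Fat tissue genes were high in intact spleen 2. Car3, a carbonic anhydrase gene of adipocytes, measured 3.97, 9.89 and 5.50 in intact spleens and 3.79, 3.38 and 2.84 on day 7, and the adipocyte genes Fabp4 and Adipoq had 9.56 and 7.02 in that spleen and at most 6.86 and 3.68 on the other 5 arrays. Dcn, the gene of the matrix protein decorin, was also highest there, with 13.26, against 10.92 and 11.53 in the other intact spleens and 9.21 to 10.22 on day 7. The part of fat or connective tissue in these values was not tested.

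Intact spleens 4 to 6 gave larger differences from day 7 for most of these groups. Against them, 1298 features passed an adjusted p under 0.05, 5.85% of all. The medians were 3.64 for primary granules, -1.73 for T cell genes, -1.81 for B cell genes, -2.44 for MHC class II and 0.92 for the proteasome, but 0.36 for acinar genes and 0.56 for erythroid genes. Of the 487 higher features, 375 also met the fold criterion against intact spleens 4 to 6, where 5.65% of all features were higher by it, as did 171 of the 284 lower features, where 3.88% were lower. Both comparisons share the day 7 arrays. The intact sets differed from each other in 131 features (0.59%, adjusted p under 0.05). The labels do not say how the sets differ, and the set and anything done to it cannot be told apart.

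Day 7 was also set against day 1, whose 3 spleens were taken 1 day after the same resection. In limma 13 features passed an adjusted p under 0.05 (0.0585% of all), 3 of them higher on day 7 (0.0135%) and 10 lower (0.045%). Il7r was at a mean of 10.43 in intact spleens 1 to 3, 12.54 on day 1 and 8.78 on day 7, a difference between the days of -3.76 ± 0.42 (SE, adjusted p = 0.0068). Lef1 and Grap2 were also lower on day 7 than on day 1, with differences of -2.49 and -2.36, and Dusp10 with -2.20. Nans and Tmem97 were higher on day 7 than on day 1 by 1.66 and 1.48. For the granulocyte genes the difference between the days was 3.15 ± 0.75 for Elane (adjusted p = 0.097) and 3.18 for Ctsg (adjusted p = 0.213), neither past the test.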

How the data were processed

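RNA of 15 mouse spleens was measured on Clariom S arrays. Per the methods and the submitters' processing notes, the authors summarised the probes of each feature with RMA in the Transcriptome Analysis Console (TAC Software 4.0.2, default settings) and deposited log2 values, so that background correction and quantile normalization could not be varied here. Whether the scale was changed further is not given in the sources used here, and it would alter the size of every difference. Features were named by the platform's table of gene symbols, and of several features of 1 gene (55 genes) the one with the highest mean was used.

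Log2 differences, standard errors and p values came from limma 3.58.1 (R 4.3.3), in 1 fit of 15 arrays in 5 groups (intact spleens 1 to 3, intact spleens 4 to 6, days 1, 3 and 7), two-sided, with Benjamini-Hochberg adjustment over 22206 features for each contrast. No filter on low levels was applied. A level was called dim where the mean of the lower group was below the median of every array. The step was tested on simulated data. The labels call the arrays biological replicates but name no animals.

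Named genes were the 10 with the largest difference each way among those past the fold criterion without overlap, the 5 with the smallest p each way, up to 6 with the smallest p in each list, the markers and genes that the study examined, and the acinar genes highest in intact spleen 1. Exceptions within a list, Fabp4, Adipoq and Btbd35f9 were named after their values were seen. The comparison, the 50 gene lists and the tests were chosen with earlier results of these data known. Alternatives changed the arrays in the fit, the control set, the replicate block, dim features, the prior, the centring, the acinar transcripts and each array in turn. Leaving out intact spleens 1 and 2 together, and leaving out day 7 spleen 3 from a fit of 12 arrays, were chosen after seeing the data. Promoters came from RefSeq (GRCm38.p6).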

Additional observations from a re-analysis of the deposited data

Results flagged for a closer look

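Day 7 differed from day 1 in 6 of the genes described above, by limma's contrast between the days. Since both days are set against the same intact spleens 1 to 3, this is also the difference between their log2 differences from intact. The T cell genes Il7r, Lef1 and Grap2 gave -3.76, -2.49 and -2.36, with adjusted p of 0.0068, 0.037 and 0.033. The phosphatase gene Dusp10 gave -2.20 (adjusted p = 0.033). The mean of Il7r was 2.11 above intact spleens 1 to 3 on day 1 and differed from them by -1.65 on day 7. For Lef1 the values were 1.11 and -1.38, for Grap2 0.39 and -1.97, and for Dusp10 0.44 and -1.76. In the other direction, Nans gave 1.66 and Tmem97 1.48 (adjusted p = 0.033 for both), from -0.25 and -0.28 on day 1 to 1.41 and 1.20 on day 7. Groups of 3 arrays are too small for a search for single outlying values.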

How the results depend on the processing

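The count of 0 features past the adjusted p, and the fold criterion's counts within 1.5 times, held with the 6 arrays alone, with 12 arrays, without the dimmest 25% of features, with another prior, after median centring or a further quantile normalization, with the acinar covariate and without acinar features. Intact spleens 4 to 6 as controls gave 1298 features at the adjusted p, and 1254 higher and 862 lower at the fold criterion. All 6 intact spleens gave 207, 759 and 435. Leaving out each array in turn gave 0 to 111 features at the adjusted p, 307 to 764 higher and 248 to 367 lower. The 111 came without day 7 spleen 3, and the 34 without intact spleen 3 were all lower and all acinar list genes or features with the acinar pattern. Without day 7 spleen 2 the higher features numbered 307. Without intact spleens 1 and 2 together, chosen after seeing the data, 1 feature passed and 577 were lower, and 12 arrays without day 7 spleen 3, also chosen then, gave 8 and 732 higher. At other thresholds, 2300 features had an unadjusted p under 0.05, 0 passed the fold with the adjusted p either way, 1169 higher and 861 lower passed a fold of 1.5, and 255 and 148 passed the fold of 2 with a p under 0.01. An adjusted p under 0.1 also gave 0.

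With the replicate number as a block the counts were 0, 504 higher and 303 lower in 6 arrays, and 0, 486 and 277 in 12. Deviations of spleens with the same number had correlations of -0.0773, -0.208 and -0.0623, so that the numbers were not taken to pair the samples.

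Of the 136 named genes, 106 kept their direction throughout. The others had the other sign in these settings, and the cause was not tested. Against intact spleens 4 to 6 the acinar genes gave 0.75 (Amy2a5), 1.21 (Amy2b), 0.94 (Cpa1), 0.34 (Cpb1), 1.57 (Ctrb1) and 0.33 (Ctrl), and Car3, Fabp4 and Dcn gave 0.31, 1.14 and 0.59. Mcpt4, Cpa3, Gfi1, Clec11a and Mki67 gave 0.72, 0.32, 0.66, 0.30 and 0.51. Cd163, Mrc1, Ly6c1, Ly6c2, Serpina1a and Serpina1b gave 0.73, 1.00, 0.49, 0.80, 4.08 and 3.83, and Nfil3, Per3, Psmb9, Psmb10 and Slc25a37 gave -0.11, 0.16, -0.46, 0.09 and 0.07. Against all 6 intact spleens, Gfi1, Clec11a, Psmb9, Mki67, Cd163 and Ly6c2 gave 0.27, 0.09, -0.12, 0.15, 0.10 and 0.11, and Serpina1a and Serpina1b 1.74 and 1.56. With the acinar covariate, Amy2a5, Amy2b, Ctrb1 and Ctrl gave 0.43, 1.41, 1.06 and 0.18, Psmb8, Psmb9, Psmb10 and Psme1 0.08, -0.07, 0.10 and 0.14, and Serpina3n -0.21. Without intact spleens 1 and 2, Amy2b, Cpa1, Cpb1, Ctrb1 and Ctrl gave 1.88, 0.04, 0.30, 1.12 and 0.81, and Psmb8, Psmb9, Psmb10 and Psme1 0.06, -0.22, 0.06 and 0.10. In 12 arrays without day 7 spleen 3, Ccne1, Csf1r and Gfi1 gave -0.15, -0.15 and 0.05, and after quantile normalization Csf1r gave -0.06. With single arrays left out, the lowest and highest values were -0.15 and 0.92 for Ccne1, -0.45 and 0.15 for Clec11a, -0.18 and 0.23 for Csf1r, -0.29 and 0.05 for Gfi1, and -0.34 and 0.01 for Mki67. They were -0.26 and 0.05 for Psmb10, -0.26 and 0.00 for Psme1, -0.43 and 1.15 for Serpina3n, and -1.25 and 0.08 for Slc25a37. Of 999 gene list medians under these settings, 888 differed from the reported median by less than 1 SD between replicates.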

Other observations

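Multicopy genes of the sex chromosomes, which are active in male germ cells and were chosen here after their values were seen, made up part of the features that were higher on day 7. Of 219 features on chromosome Y, 67 were past the fold criterion (30.6%, against 2.19% of all features), and of 23 features of the Btbd35f family, 18 were (78.3%). The mean of the Btbd35f features was 5.28, 4.64 and 4.00 in intact spleens 1 to 3 and 6.93, 7.05 and 4.64 on day 7. Day 7 spleen 3 thus lay within the range of the intact spleens. Btbd35f9 measured 5.70, 6.20 and 4.84 in intact spleens and 8.79, 8.24 and 6.48 on day 7. Copies of these families share sequence, the 67 features hold 52 distinct sets of values, and 24 of the 67 were dim in intact spleens. Without day 7 spleen 3, 103 higher and 8 lower features passed the test, and 68 of them lie on chromosome X or Y. Of all 22206 features, 971 lie on chromosome X and 219 on chromosome Y. In 71 of the 103 higher features, day 7 spleen 3 was at or below the highest intact array. That array was left out here, so that the count favours features in which it is low.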
